A study of Mus musculus with 10 samples.

Results

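The 39 HOX genes of the mouse, which lie in 4 clusters named HoxA to HoxD and are numbered by paralog group from 1 to 13, were examined in preadipocytes, the precursors of fat cells. All symbols made of Hox, a cluster letter and a number were taken from the gene table, and 39 of 32903 genes met this rule, with 11 in HoxA, 10 in HoxB, 9 in HoxC and 9 in HoxD. RNA was sequenced from cells of the inguinal subcutaneous fat (labelled iSAT) of male C57BL/6 mice of wild-type genotype, in 10 libraries. In 5 libraries the cells had received the vehicle DMSO, and in 5 they had received 2.5 µM BPS dissolved in DMSO. BPS stands for bisphenol S, which is used in place of bisphenol A and resembles it in structure, and DMSO is the solvent that both groups share. Age, the time of exposure, and whether replicates were separate animals, cultures or dishes were not stated, so the p-values below measure the spread between these libraries, which may be technical.

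HOX genes encode homeodomain transcription factors that give cells an address along the head-to-tail axis and along the limbs. Within a cluster, low-numbered genes are switched on early and towards the head, and high-numbered genes later and towards the tail and the limb tips. Fibroblasts and preadipocytes taken from the adult body keep a HOX pattern that reflects where they came from, and Polycomb proteins hold the unused genes of a cluster silent while Trithorax proteins keep the used genes active.

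Sequences at the edges of the expressed pattern are shown first, because the drop in HoxD level falls between the neighbours Hoxd8 and Hoxd9. Hoxa10 windows are shown because transcripts of both of its listed starts had estimated counts. Each line gives the 150 bases just before a listed transcription start, from RefSeq on GRCm38.p6, read 5′ to 3′ on the gene's own strand, with every CG dinucleotide in capitals. CG dinucleotides are dense in the CpG islands on which Polycomb and Trithorax proteins act. The HoxD windows run from Hoxd4 and Hoxd8, which were expressed, to Hoxd9 and Hoxd10, which were scarcely detected.
Hoxd4, chr2:74721828-74721977, plus strand: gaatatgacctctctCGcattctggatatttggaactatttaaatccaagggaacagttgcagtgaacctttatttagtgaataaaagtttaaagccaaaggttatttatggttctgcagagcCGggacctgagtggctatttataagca
Hoxd8, chr2:74704465-74704614, plus strand: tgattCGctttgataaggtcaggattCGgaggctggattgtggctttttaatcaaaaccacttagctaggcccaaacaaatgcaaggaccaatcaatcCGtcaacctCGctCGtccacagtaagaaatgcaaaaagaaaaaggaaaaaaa
Hoxd9, chr2:74697613-74697762, plus strand: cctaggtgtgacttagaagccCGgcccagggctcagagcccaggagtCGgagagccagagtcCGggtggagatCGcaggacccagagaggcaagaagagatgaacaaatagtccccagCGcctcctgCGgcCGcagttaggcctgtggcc
Hoxd10, chr2:74691741-74691890, plus strand: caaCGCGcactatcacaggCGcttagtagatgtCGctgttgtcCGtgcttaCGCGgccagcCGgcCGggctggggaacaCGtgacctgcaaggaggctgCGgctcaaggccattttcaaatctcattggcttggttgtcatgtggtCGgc
Hoxa10 first window, chr6:52234940-52235089, minus strand: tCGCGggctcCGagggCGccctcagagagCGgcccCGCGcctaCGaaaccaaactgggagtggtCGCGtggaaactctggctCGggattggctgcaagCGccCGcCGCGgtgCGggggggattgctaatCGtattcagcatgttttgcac
Hoxa10 second window, chr6:52240855-52241004, minus strand: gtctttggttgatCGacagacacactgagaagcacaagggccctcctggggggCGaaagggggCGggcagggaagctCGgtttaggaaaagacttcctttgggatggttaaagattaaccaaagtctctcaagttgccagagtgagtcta
In these 150 bases the number of CG dinucleotides was 2 for Hoxd4, 5 for Hoxd8, 7 for Hoxd9 and 12 for Hoxd10. The starts of Hoxd8 and Hoxd9 are 6852 bases apart, and those of Hoxd9 and Hoxd10 are 5872 bases apart. The Hoxa10 windows, whose starts are 5915 bases apart, held 17 and 4 CG dinucleotides. The promoter table held 24 windows of 22 HOX genes. Over the 250 bases before the start, the median was 12.5 CG dinucleotides in the 24 HOX windows and 6 in all 32851 windows of the table. The 15 windows of HOX genes at 1 CPM or more had a median of 12, and the 9 windows of the other HOX genes a median of 20. Their ranges, 3 to 28 and 2 to 35, overlapped widely. CPM is the gene's counts per 1000000 counts assigned to genes, after scaling between libraries. The letters CCAAT, read on either strand, stood in 58.3% of HOX windows and 33.8% of all windows. The letters TATAAA stood in 16.7% and 12.4%, and TGATNNAT, a form of the site bound by HOX proteins with their cofactors, in 16.7% and 7.68%. These matches describe letters in a window and not bound sites.

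Total estimated counts per library lay between 38200573 and 42314795 in DMSO and between 37920689 and 42717227 in BPS, and HOX genes took 0.0385% to 0.0423% of the counts assigned to genes. All 10 preadipocyte and fibroblast markers listed, Pdgfra and Col1a1 among them, were at 1 CPM or more. With edgeR 2 of the 10 were higher in BPS (adjusted p under 0.05), against 3.06% of all genes tested. Cd34 rose by a log2 fold change of 0.28 (SE 0.031, edgeR adjusted p = 0.000428) and Thy1 by 0.19 (SE 0.025, edgeR adjusted p = 0.00129). Both had no overlap between groups, as had 4.19% of all genes tested in the higher direction. The summed markers of mature fat cells lay between 0.100 and 0.329 CPM over all libraries, with Lep at 0 counts, and those of muscle precursors at or under 0.0544 CPM. Macrophage markers summed to 9.10 to 14.7 CPM with DMSO and 9.97 to 17.3 CPM with BPS, with Csf1r at 0 counts, and endothelial markers to 17.3 to 22.7 CPM and 16.7 to 22.5 CPM. Of 5 mural markers, all tested, 1 passed: Mcam rose by a log2 fold change of 0.36 (SE 0.073, edgeR adjusted p = 0.0158). The mural list summed to 39.1 to 42.5 CPM with DMSO and 41.5 to 50.0 CPM with BPS. Of 5 mesothelial markers 1 was tested, Krt19, which rose by a log2 fold change of 0.27 (SE 0.065, edgeR adjusted p = 0.0367). The mesothelial list, nearly all of it Krt19, summed to 8.24 to 10.1 CPM with DMSO and 10.3 to 12.1 CPM with BPS. The defining markers Msln and Upk3b were at 0 counts. These calls too stand against 3.06% of all genes tested. The part of these lists in the HOX values was not tested. No label gives a batch, but the library codes place all DMSO libraries before all BPS libraries, so a batch in that order and the treatment cannot be told apart. In bulk RNA, fewer cells expressing a HOX gene and less RNA per cell also cannot be told apart.

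In the vehicle, the cells expressed a broad HOX code in which HoxA, HoxB and HoxC were active nearly throughout and HoxD was active in only a few genes. At a mean of 1 CPM or more were 29 of the 39 genes, namely 10 of 11 in HoxA, 8 of 10 in HoxB, 8 of 9 in HoxC and 3 of 9 in HoxD. HoxC held the largest share of the HOX signal: its genes made up 53.5% of the summed HOX CPM (SD 0.194, n = 5), against 21.3% (SD 0.105) for HoxB, 18.1% (SD 0.176) for HoxA and 7.12% (SD 0.0846) for HoxD. The 3 expressed HoxD genes were Hoxd3, Hoxd4 and Hoxd8. With accessions matched by exact version, which drops part of the transcripts, the shares were 55.9% for HoxC, 15.5% for HoxB, 19.5% for HoxA and 9.10% for HoxD.

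**Figure D1:**
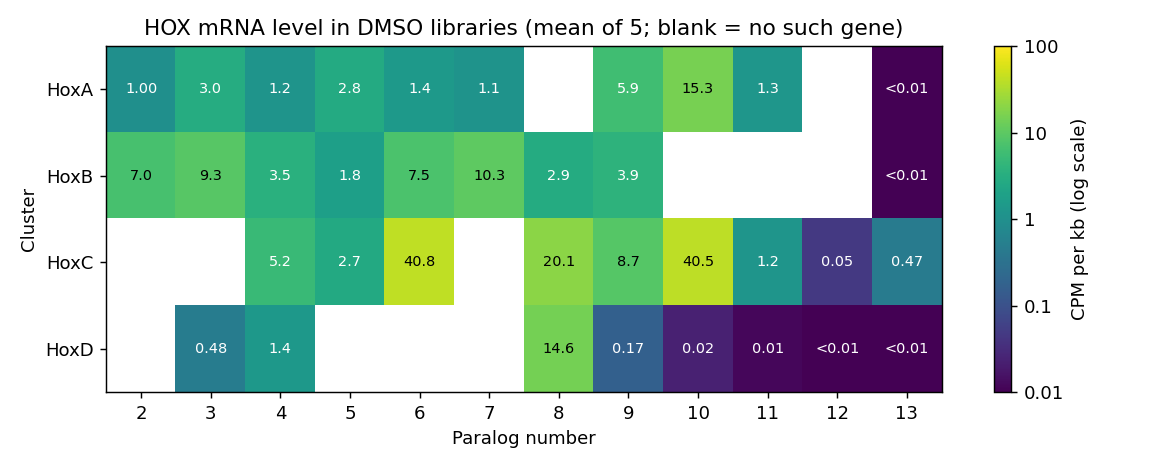
Mean level of the HOX genes of paralog groups 2 to 13 in the 5 DMSO libraries, in CPM per kb of transcript, with clusters in rows and paralog numbers in columns (colour on a log scale, the number in each cell is the value). Hoxc6 and Hoxc10 stand highest at 40.8 and 40.5 CPM per kb, and HoxD falls from 14.6 at Hoxd8 to 0.17 at Hoxd9.

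To compare genes with one another, CPM was divided by mean transcript length in kb. On that scale Hoxc6, a gene of the thoracic part of the code, had 40.8 ± 0.812 CPM per kb (SD, n = 5) and Hoxc10, a gene of the lumbar and hindlimb region, 40.5 ± 0.789 CPM per kb. Their ranges over the DMSO libraries, 39.7 to 42.0 and 39.6 to 41.5, overlapped. Hoxc8, known as a white-fat HOX gene that holds back the brown-fat programme, followed at 20.1 ± 0.652 CPM per kb. Hoxa10 at 15.3 ± 0.164 and Hoxd8 at 14.6 ± 0.187 CPM per kb came next. Their ranges, 15.02 to 15.48 and 14.43 to 14.88, did not overlap. Such ranges hold the spread between libraries only. The lengths are means over 2 transcripts of Hoxa10 and 3 of Hoxd8, so the order of these 2 genes is uncertain. Hoxb7 followed at 10.3 ± 0.197 CPM per kb, above Hoxb3 at 9.28 ± 0.255, whose range overlapped that of Hoxc9 at 8.72 ± 0.446. The median of 14062 tested genes with a known length was 7.33 CPM per kb, so 9 HOX genes lay above it and Hoxc6 and Hoxc10 stood at the 87.4th and 87.3rd percentiles. These top 2 genes held 37.5% of the summed HOX level per kb. The mean lengths were not weighted by the counts of each transcript. For Hoxc6 the length was that of 1 transcript. Its transcript NM_010465.2 held 24.4 to 32.5% of its counts in DMSO, and predicted models held the rest. All Hoxb6 counts lay on a predicted model. Levels, ranks, percentiles and shares per kb thus carry an error in length that the SDs leave out.

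Among paralog groups 2 to 13, the code was continuous from group 2 to group 11. In groups 2 to 8 every existing gene was at 1 CPM or more. Summed over a group, group 10 was highest at 55.8 ± 0.883 CPM per kb (SD, n = 5), followed by group 6 at 49.7 ± 0.954 and group 8 at 37.7 ± 0.699. Group 11, which patterns the forearm and lower leg in the limb, was at 2.52 ± 0.210 CPM per kb, and group 12 at 0.0462 ± 0.0341. In group 13, which patterns hands, feet and the tail end, 1 of 4 genes reached 1 CPM: Hoxc13, known in hair and nails.

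The step from expressed to scarcely detected genes was steep within HoxD. Hoxd8 had 809 to 969 counts per library, whereas its neighbour Hoxd9 had 5 to 18 and Hoxd10 0 to 4. Hoxd12 had 0 counts in all 10 libraries, which allows up to 3 counts per library, or 0.0752 to 0.0861 CPM. Such floors cover counting error only. Hoxd11 and Hoxd1 had 0 to 3 counts and Hoxd13 0 to 1. In the other clusters the scarcely detected genes were Hoxa13 and Hoxb13 with 0 to 1 counts, Hoxc12 with 0 to 3 and Hoxb1 with 0 to 8. HoxA, HoxB and HoxC thus each had an expressed block that ended in a different place: Hoxa11 was the last gene of HoxA over 1 CPM, Hoxb9 the last of HoxB, and Hoxc13 that of HoxC, with Hoxc12 between Hoxc11 and Hoxc13 at the floor.

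Under BPS the same HOX genes were on. The same 29 genes were at 1 CPM or more in the BPS libraries, and the 9 HOX genes too low to test had at most 8 counts in any library. The summed HOX level was 414.9 ± 6.87 CPM in DMSO (404.2 to 420.5) and 406.2 ± 10.5 CPM in BPS (391.2 to 419.0), and the groups overlapped. Of 14597 genes tested with edgeR (quasi-likelihood fit, p adjusted by Benjamini and Hochberg's method), 712 (4.88%) had an adjusted p under 0.05. Of them 447 (3.06%) were higher and 265 (1.82%) lower in BPS, or 334 and 394 with libraries scaled by size alone. None of the 30 HOX genes tested, which are the 29 expressed genes and Hoxd9, was among them: 0 of 30 passed, and the lowest adjusted p was 0.0812, that of Hoxa3. DESeq2 and limma-voom also called 0 of 30. At an unadjusted p under 0.05 stood 8 of the 30 with edgeR, 5 with DESeq2 and 8 with limma-voom, against 18.8% of all genes tested with edgeR. With edgeR, 6 of the 30 tested HOX genes were lower and 2 of the 30 higher in BPS at this unadjusted p, against 8.59% and 10.2% of all genes tested.

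**Figure D2:**
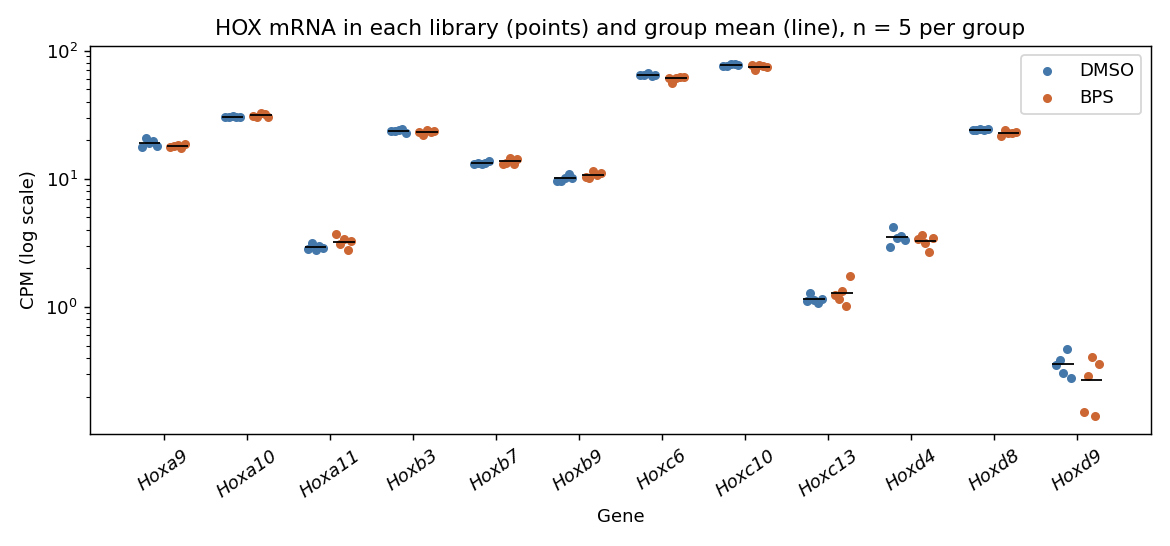
CPM on a log axis of 12 HOX genes in each of the 5 DMSO and 5 BPS libraries (points) with the group mean (line). The groups share their range for all 12 genes except Hoxc6, where the BPS libraries lie between 55.9 and 62.4 CPM and the DMSO libraries between 62.8 and 66.4.

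The intervals of the differences left out changes beyond 1.5-fold for most HOX genes. The 95% interval of the log2 fold change of BPS over DMSO lay within ±0.3 for 18 of the 30 genes and within 1.5-fold either way, ±0.585 on the log2 scale, for 27. The median absolute log2 fold change was 0.0982 over the HOX genes, 0.0563 over all genes tested and 0.159 over the 712 called genes. The intervals of many HOX genes, such as Hoxa11 (-0.0451 to 0.334), reached beyond 0.159. For those genes a change of the size typical of called genes was not excluded. Within the DMSO group, the coefficient of variation of the tested HOX genes ran from 1.07% for Hoxa10 to 21.2% for Hoxd9, with a median of 5.76%.

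HoxC, the cluster with most signal, is described first. Hoxc10, reported to restrain browning of subcutaneous fat, had 76.1, 75.5, 78.2, 79.2 and 77.8 CPM in the DMSO libraries and 77.6, 70.5, 77.6, 75.3 and 73.9 CPM in the BPS libraries. The groups overlapped, with BPS replicates 2, 4 and 5 below the DMSO range and replicates 1 and 3 within it. The log2 fold change was -0.05 (SE 0.028, 95% interval -0.106 to 0.0156, edgeR adjusted p = 0.432). It was -0.02 without BPS replicate 2 and -0.06 without BPS replicate 1. Hoxc6 had 64.1, 64.8, 66.4, 62.8 and 64.7 CPM with DMSO and 61.5, 55.9, 61.6, 62.1 and 62.4 CPM with BPS. All 5 BPS libraries were below all 5 DMSO libraries, and BPS replicate 2 was the lowest. Its log2 fold change was -0.09 (SE 0.031, 95% interval -0.155 to -0.0219, edgeR adjusted p = 0.130), which did not pass. Without BPS replicate 2 it was -0.06 (edgeR adjusted p = 0.154), and without DMSO replicate 4 it was -0.10. Hoxc13 had 1.11, 1.28, 1.14, 1.08 and 1.14 CPM with DMSO and 1.23, 1.15, 1.33, 1.01 and 1.74 CPM with BPS. Its groups overlapped, the highest value being that of BPS replicate 5. The log2 fold change was 0.17 (SE 0.145, edgeR adjusted p = 0.606). It was 0.04 without BPS replicate 5 and 0.24 without BPS replicate 4. Hoxc8 averaged 37.6 CPM with DMSO and 36.5 CPM with BPS, and Hoxc9 20.7 and 21.5 CPM.

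In HoxA, Hoxa10, a posterior gene of trunk and limb, had 30.05, 30.57, 30.96, 30.57 and 30.45 CPM with DMSO and 30.65, 30.37, 32.76, 31.89 and 30.10 CPM with BPS. These are the least variable values of any HOX gene in DMSO. The groups overlapped, with a log2 fold change of 0.03 (SE 0.028, 95% interval -0.0318 to 0.0908, edgeR adjusted p = 0.644). Hoxa9, its neighbour, had 17.7, 20.8, 19.1, 19.6 and 17.9 CPM with DMSO and 17.8, 18.1, 18.4, 17.4 and 18.8 CPM with BPS. These groups overlapped too, with a log2 fold change of -0.07 (SE 0.047, edgeR adjusted p = 0.444). Hoxa11, the last expressed gene of the cluster, had 2.83, 3.17, 2.79, 2.97 and 2.90 CPM with DMSO and 3.68, 3.10, 3.38, 2.76 and 3.26 CPM with BPS. BPS libraries stood at both ends of its range, and the log2 fold change was 0.14 (SE 0.087, edgeR adjusted p = 0.416). Single libraries moved these small values in both directions. Hoxa10 was at 0.01 without BPS replicate 3 and at 0.04 without BPS replicate 5. Hoxa9 was at -0.04 without DMSO replicate 2 and at -0.10 without DMSO replicate 1. Hoxa11 was at 0.09 without BPS replicate 1 and at 0.20 without BPS replicate 4.

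In HoxB, Hoxb3, a gene of the hindbrain and neck part of the code, had 23.4, 23.6, 24.1, 24.3 and 22.6 CPM with DMSO and 23.2, 22.0, 24.0, 23.3 and 23.5 CPM with BPS. The groups overlapped, with a log2 fold change of -0.02 (SE 0.032, edgeR adjusted p = 0.757). Hoxb7, a trunk gene, had 13.1, 13.3, 13.1, 13.3 and 13.7 CPM with DMSO and 13.1, 13.4, 14.6, 12.96 and 14.4 CPM with BPS. BPS replicates 3 and 5 were above the DMSO range and replicate 4 below it, and the log2 fold change was 0.04 (SE 0.043, edgeR adjusted p = 0.687). Hoxb9, the last expressed gene of HoxB, had 9.60, 9.56, 10.1, 10.9 and 10.2 CPM with DMSO and 10.35, 10.16, 11.42, 10.62 and 11.15 CPM with BPS. The groups overlapped, with a log2 fold change of 0.09 (SE 0.052, edgeR adjusted p = 0.377). Leaving out 1 library moved Hoxb3 between -0.04 (without DMSO replicate 5) and -0.01 (without BPS replicate 2 or DMSO replicate 4). Hoxb7 moved between 0.02 (without BPS replicate 3 or 5) and 0.06 (without BPS replicate 1 or 4).

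In HoxD, Hoxd8 had 24.1, 23.9, 24.6, 23.8 and 24.3 CPM with DMSO and 21.6, 24.1, 22.7, 22.8 and 23.3 CPM with BPS. Of the BPS libraries 4 were below the DMSO range and 1 within it. The log2 fold change was -0.08 (SE 0.031, 95% interval -0.144 to -0.00664, edgeR adjusted p = 0.219). Hoxd4 had 2.94, 4.19, 3.45, 3.58 and 3.32 CPM with DMSO and 3.38, 3.65, 3.14, 2.68 and 3.43 CPM with BPS, overlapping groups with a log2 fold change of -0.10 (SE 0.109, edgeR adjusted p = 0.684). The Hoxd4 value was -0.03 without DMSO replicate 2, -0.04 without BPS replicate 4 and -0.16 without DMSO replicate 1.

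**Figure D3:**
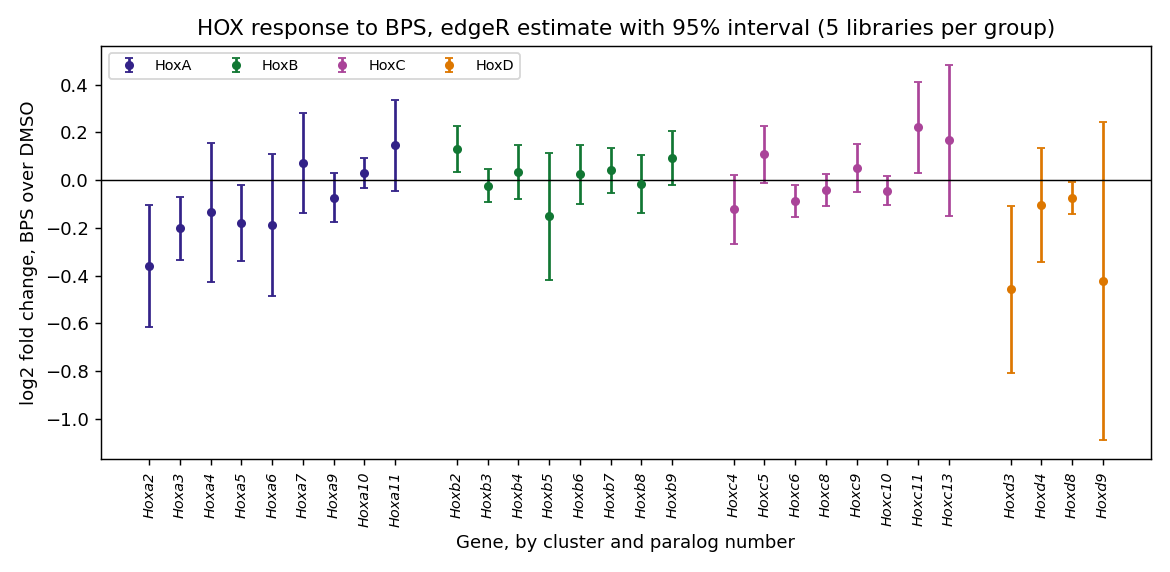
Log2 fold change of BPS over DMSO for 29 of the 30 tested HOX genes (paralog groups 2 to 13), ordered by cluster and paralog number, with the 95% interval of the edgeR fit as bars. Intervals of 8 genes leave out 0 (Hoxa2, Hoxa3, Hoxa5, Hoxc6, Hoxd3 and Hoxd8 below it, Hoxb2 and Hoxc11 above it), and no gene passed after adjustment.

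The genes with the largest shifts relative to their error were chosen for description after their values were seen, and none passed the adjusted test. Hoxa3, which patterns the neck organs, had 7.40, 8.13, 7.80, 7.95 and 7.93 CPM with DMSO and 6.09, 7.03, 7.25, 6.48 and 7.22 CPM with BPS. The groups did not overlap, and the log2 fold change was -0.20 (SE 0.060, 95% interval -0.334 to -0.0712, edgeR adjusted p = 0.0812). Hoxa5 had 4.95 to 5.55 CPM with DMSO and 4.08 to 4.94 CPM with BPS, with no overlap, and a log2 fold change of -0.18 (SE 0.073, edgeR adjusted p = 0.207). Together with Hoxc6 these are the 3 of 30 tested HOX genes whose groups did not overlap, all lower in BPS, against 6.91% of all genes tested in either direction, 2.71% in the lower and 4.19% in the higher direction. Hoxa2, a gene of the hindbrain and the pharyngeal arches, had 1.49 to 2.05 CPM with DMSO and 1.15 to 1.55 CPM with BPS, overlapping groups with a log2 fold change of -0.36 (SE 0.118, edgeR adjusted p = 0.112). Hoxd3 had 1.17 to 1.74 CPM with DMSO and 0.827 to 1.29 CPM with BPS, also overlapping, with a log2 fold change of -0.46 (SE 0.160, edgeR adjusted p = 0.135). In the other direction, Hoxb2 had 10.8 to 12.3 CPM with DMSO and 11.9 to 12.7 CPM with BPS, with a log2 fold change of 0.13 (SE 0.044, edgeR adjusted p = 0.127). Hoxc11 had 2.23 to 2.91 CPM with DMSO and 2.76 to 2.99 CPM with BPS, with a log2 fold change of 0.22 (SE 0.087, edgeR adjusted p = 0.191).

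The estimates had a lower sign in 18 of the 30 genes (60%), against 49.8% of all genes tested, and in 18 under each of 3 other scalings of the libraries, and the median log2 fold change was -0.03 (-0.0332), against 0.000393 over all genes. By cluster the sign was lower in 7 of 10 HoxA genes, 3 of 8 HoxB genes, 4 of 8 HoxC genes and 4 of 4 HoxD genes. By paralog number it was lower in 12 of the 16 tested genes of groups 1 to 6, with a median of -0.11 (-0.113), and in 6 of the 14 tested genes of groups 7 to 13, with a median of 0.03 (0.0349). Spearman's rho between paralog number and log2 fold change was 0.438 over the 30 genes, given as a description, since genes of a cluster share libraries and neighbours and low-count genes carry wide errors. The share of HoxB in the summed HOX CPM was 21.4, 21.3, 21.1, 21.3 and 21.3% in the DMSO libraries and 22.1, 22.2, 22.4, 21.8 and 22.2% in the BPS libraries, so the groups did not overlap for this share, while those of HoxA, HoxC and HoxD did. The summed CPM of HoxB itself overlapped between groups, at 86.7 to 89.5 CPM with DMSO and 87.0 to 93.9 CPM with BPS, and the mean sums of the other clusters were lower in BPS: 75.1 and 72.8 CPM for HoxA, 222.0 and 215.8 CPM for HoxC, and 29.5 and 27.6 CPM for HoxD.

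Single transcripts were read because HOX genes have several starts and shared exons. The 39 genes have 75 transcripts in the deposited table, of which 29 are predicted models that held 23.8% of HOX counts in DMSO. Of 54 HOX transcripts tested without summing, 0 passed by edgeR, against 0.335% of 37588 transcripts, and 3 had an unadjusted p under 0.05, against 6.83% of all transcripts, a share that the 3 of 54 do not exceed. These 3 are described beside the other transcripts of their genes, and their part in the gene values was not tested. The first was the Hoxa9 transcript NM_001277238.1, with 262, 293, 332, 296 and 272 counts in DMSO and 212, 246, 155, 195 and 178 counts in BPS. All BPS libraries were below all DMSO libraries, with a log2 fold change of -0.51 (SE 0.138, edgeR adjusted p = 0.307). The other Hoxa9 transcript, NM_010456.3, had 371 to 522 counts in DMSO and 383 to 526 counts in BPS, with a log2 fold change of 0.16. The share of NM_001277238.1 in Hoxa9 was 36.0 to 44.1% in DMSO and 22.8 to 39.1% in BPS, with overlap. The second was the Hoxb2 transcript NM_134032.2, with 102, 101, 117, 98 and 88 counts in DMSO and 142, 134, 140, 121 and 120 counts in BPS. These groups did not overlap either, with a log2 fold change of 0.43 (SE 0.125, edgeR adjusted p = 0.378). Of the 54 tested HOX transcripts, 4 had groups that did not overlap. The share over all transcripts was not counted, so no background stands beside these separations. Its share of Hoxb2 was 22.4 to 25.9% in DMSO and 26.2 to 30.7% in BPS, and the other transcript, the predicted model XM_006531932.3, had 304 to 351 and 302 to 351 counts. When accessions were matched by exact version, NM_134032.2 alone stood for Hoxb2, and Hoxb2 then passed, as did 2.79% of all genes in that fit, with a log2 fold change of 0.42 (edgeR adjusted p = 0.0317). The third was the predicted Hoxc6 model XM_006520468.3, with 1068 to 1211 counts in DMSO and 883 to 1044 counts in BPS and a log2 fold change of -0.16 (SE 0.038, edgeR adjusted p = 0.224). How estimated counts are divided among transcripts with shared sequence is uncertain, and the Hoxc4, Hoxc5 and Hoxc6 models share exons.

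**Figure D4:**
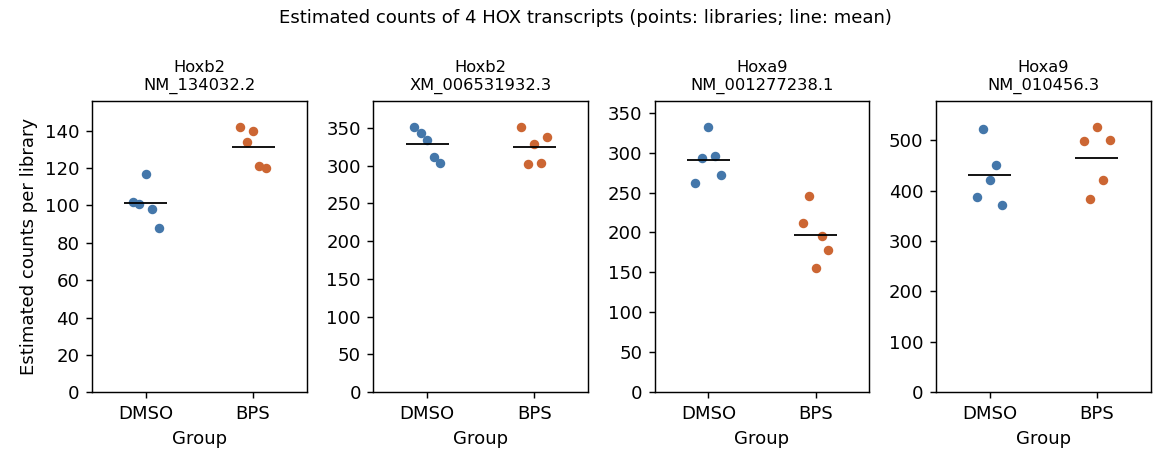
Estimated counts per library of both Hoxb2 and both Hoxa9 transcripts, with a line at the group mean. NM_134032.2 of Hoxb2 lies at 88 to 117 counts in DMSO and 120 to 142 in BPS, NM_001277238.1 of Hoxa9 at 262 to 332 and 155 to 246, and the partner transcript of each gene overlaps between groups.

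Estimated counts of Hoxa10 fell on transcripts of both starts whose windows are printed above. How counts are divided between these transcripts is uncertain, and use of either start was not tested. The transcript of the CG-rich first window, NM_008263.3, had 598 to 698 counts in DMSO and 523 to 665 in BPS, and that of the second window, NM_001122950.2, had 489 to 582 and 416 to 609. The first made up 51.3 to 57.1% of Hoxa10 counts in DMSO and 46.2 to 61.1% in BPS. Neither transcript passed the test, with log2 fold changes of 0.03 (SE 0.071) and 0.03 (SE 0.106).

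Partners and keepers of the HOX code were given as 4 lists with 111 genes, of which 84 were tested. HOX proteins bind DNA together with TALE-class cofactors, and 8 of the 9 listed were tested, with 0 higher and 1 lower. Over all genes tested, 3.06% were higher and 1.82% lower. That gene was Pknox1, which had 38.2 ± 1.25 CPM with DMSO and 34.5 ± 0.896 CPM with BPS (SD, n = 5 each), was lower in every BPS library than in any DMSO library and fell by 0.14 on the log2 scale (SE 0.029, edgeR adjusted p = 0.0160). The cofactor Pknox2 had 87.6 CPM in DMSO and did not pass. Of 39 Polycomb and Trithorax group genes and related regulators, all tested, 0 were higher and 1 was lower, against the same 3.06% and 1.82% of all genes. That gene was Asxl1, a Polycomb-linked regulator, at 99.9 ± 2.34 CPM with DMSO and 94.7 ± 1.19 CPM with BPS, with a log2 fold change of -0.08 (SE 0.020, edgeR adjusted p = 0.0461) and overlapping groups. The highest CPM of this list were those of the histone-binding genes Rbbp7 and Rbbp4 at 301.2 and 237.7 CPM in DMSO, and Ezh2, the Polycomb methyltransferase, had 66.8 CPM. Asxl1 lost its call when any of 8 single libraries was left out.

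The third list held noncoding genes and the Evx genes next to the clusters, and 18 of its 22 names were matched. Of the 5 tested, 0 passed with edgeR and 1, Hoxb5os, had an unadjusted p under 0.05, as did 18.8% of all genes. Hoxa11os, antisense to Hoxa11, had 2.31 CPM and Hotairm1, a noncoding transcript of HoxA, 1.03 CPM in DMSO. Hotair, transcribed within HoxC, had 7 to 13 counts per library, and Hottip, Evx1 and Evx2 had 0 counts in all libraries. Hoxb5os, antisense to Hoxb5, had 10 to 31 counts per library, with means of 0.659 CPM with DMSO and 0.411 CPM with BPS. Its log2 fold change was -0.69 (SE 0.219, edgeR adjusted p = 0.102). Without BPS replicate 2 it passed (log2 fold change -0.89, edgeR adjusted p = 0.0356), in a fit that called 462 of about 14710 genes. It passed in no other alternative. The library kit keeps strand but the strand setting of the counting is not given in the sources used here, so reads of such genes and of the HOX genes they overlap cannot be told apart.

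The fourth list held genes outside the clusters that mark body regions, and 1 of the 32 tested of 41 was higher and 0 were lower, a share near the 3.06% of all genes that were higher. That gene was Meox1, a somite homeobox gene, with 255.0, 247.3, 243.0, 249.0 and 243.9 CPM with DMSO and 288.0, 301.0, 280.0, 298.8 and 279.7 CPM with BPS. All BPS libraries were above all DMSO libraries, and Meox1 rose by a log2 fold change of 0.23 (SE 0.024, edgeR adjusted p = 0.000307). The highest CPM of the list was that of Prrx1, a limb and connective tissue gene, with 601.7 CPM in DMSO. Per kb, the subcutaneous fat genes Shox2 and Tbx15 had 67.3 ± 1.11 and 38.2 ± 0.702 CPM per kb in DMSO (SD, n = 5), the latter just below Hoxc6 and Hoxc10. The hindlimb gene Pitx1 had 4.89 ± 0.355 CPM per kb, the forelimb gene Tbx5 1.87 ± 0.100 and the hindlimb gene Tbx4 0.173 ± 0.0862.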

How the data were processed

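The authors deposited estimated counts for 107384 RefSeq transcripts in 10 libraries, made with kallisto 0.42.4 per the submitters' processing notes. Its index, genome build and strand setting are not given in the sources used here. Accessions were matched to genes without their version through a RefSeq table of GRCm38.p6, which placed 86722 transcripts and 93.1% of counts in 32903 genes; 0 columns lacked a sample. Counts were summed per gene and rounded. Lengths are unweighted means of GENCODE M21 transcripts. Genes passing filterByExpr (14597) were scaled by TMM (factors 0.985 to 1.01) and tested with edgeR 4.0.16 (R 4.3.3, quasi-likelihood, no covariates, Benjamini-Hochberg, threshold 0.05). On simulated counts the code was tested for recovery of seeded changes. The members and lists were chosen with earlier results of these data known. Full values are given for the 2 most abundant genes and the highest-numbered expressed gene of each cluster, and for called genes; of each related list, called genes and the 2 most abundant. Promoter sequences are RefSeq's. Alternatives were other scalings, filters, DESeq2 1.42.0, limma 3.58.1, a replicate block, GC and length trends, exact versions, single transcripts and leaving out each library. Same-numbered libraries correlated by -0.078 to 0.1 in their deviations, and replicates 1 and 4 were best matched by their own number. These values show no strong shared effect, but cannot tell whether libraries were paired by design. Values of some single genes that meet this description are not reported here.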

Additional observations from a re-analysis of the deposited data

Results flagged for a closer look

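Hoxc6 in BPS replicate 2 stood apart from its group, at 55.9 CPM against 61.5 to 62.4 CPM in the other 4 BPS libraries. The gap to the nearest library was 0.858 of the whole range of the group. This was 1 of 74 groups of 5 HOX values examined, among which chance gives about 3.7 such gaps. Without this library the Hoxc6 log2 fold change was -0.06 (adjusted p = 0.154 by edgeR) instead of -0.09. The same library also had the lowest summed HOX level, 391.2 CPM, and the lowest HoxC level, 203.1 CPM.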

How the results depend on the processing

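No HOX gene passed in 22 of 23 alternatives; with exact version matching 1 did, Hoxb2 (27 tested, 2.79% of all genes called), for which only 1 of its transcripts remained. That matching also turned the Hoxb3 log2 fold change to 0.12 (adjusted p = 0.651 by edgeR) and gave cluster shares of 19.5% for HoxA, 15.5% for HoxB, 55.9% for HoxC and 9.10% for HoxD. The number of HOX genes at 1 CPM or more was 24 with exact versions, 24 at a threshold of 2 CPM and 29 at 0.5 CPM. Over all genes, 374 were called with the replicate block, 328 with exact versions and 449 to 774 with 1 library left out, the lowest without DMSO replicate 2. Without BPS replicates 2, 3 or 4 the counts were 462, 465 and 462. Of the related lists, 1 gene was called with the block, 1 with exact versions (Meox1 both times) and 5 with GC and length trends removed (Bap1, Ezh1, Meox1, Pknox1 and Prrx1), and 2 to 4 with 1 library left out. Pknox1 and Asxl1 did not pass with the block (adjusted p 0.0671 and 0.117 by edgeR), with log2 fold changes of -0.14 and -0.08 as without it, and with GC and length trends removed as well as the block Pknox1 passed (0.0382). Pknox1 had an adjusted p of 0.487 with exact versions, and Asxl1 lost its call in 13 alternatives, 8 of them single libraries left out. Depth limits the precision for Hoxa2, Hoxa4, Hoxa6, Hoxc13, Hoxd3 and Hoxd9, which had fewer than 100 counts in every library. The replicate block changed no call among HOX genes.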
